A study of Homo sapiens with 12 samples.

Results

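Kinesins are motor proteins that turn ATP into movement along microtubules or take microtubules apart. The kinesin genes were taken as all protein-coding genes whose GENCODE symbol is KIF or KIFC followed by a digit, together with CENPE, the kinesin of the centromere. This rule found 43 of the 61533 genes in the files, with 440 of the 244939 transcripts. By their known roles they were divided into 15 mitotic kinesins, 15 transport kinesins and 13 other kinesins. After the filter on low counts 39 of them could be tested. KIF2B had no count in any of the 12 libraries, KIF4B had 0 to 7 counts per library, KIF19 had 0 to 2 counts, and KIF25 had 0 counts in all PEO-4 libraries and 3 to 8 in the libraries of the other lines. A count of 0 still allows 3 counts, which is 0.0576 to 0.150 CPM (read counts relative to the size of the library) in these libraries.

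Mitotic kinesins build the spindle, move and align chromosomes on it, and form the midzone at which the daughter cells part. Many of their genes are known to be transcribed in waves of the cell cycle, with the highest RNA levels shortly before and during division. Transport kinesins carry vesicles, organelles and RNA along microtubules in cells that do not divide as well as in those that do. Several of them, such as KIF1A, KIF5A and KIF5C, are best known from neurons. The other kinesins include motors of cilia, microtubule depolymerases and members that have lost their motor activity.

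Total RNA of 3 ovarian lines was sequenced, with 4 libraries per line. T1074 comes from normal ovarian surface epithelium and was immortalized with SV40, PEO-4 is a high-grade serous carcinoma line, and SKOV-3 is labelled as a serous cystadenocarcinoma and described in the paper as clear cell carcinoma. By the paper, PEO-4 was taken after clinical resistance had set in, from a patient given cisplatin and other drugs. SKOV-3 is described there as resistant to drugs that include cisplatin and adriamycin. None of the lines was treated or edited for the sequencing, the labels give all of them as wild type, and each is a single line, so a difference is between these lines and not between carcinoma and epithelium at large. T1074 grew in Prigrow I, PEO-4 in RPMI 1640 and SKOV-3 in modified McCoy's 5A, so line and medium cannot be told apart. The labels do not say whether replicates came from separate cultures, and the p-values then measure only the spread between these libraries, which may be technical.

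Libraries held 19780836 to 38583368 expected counts in T1074, against 38690954 to 47148161 in PEO-4 and, in SKOV-3, 47340136 to 55739060. T1074 replicate 1 had the lowest total. Kinesin genes took 0.198% to 0.273% of these counts in T1074, against 0.0729% to 0.103% in PEO-4 and, in SKOV-3, 0.125% to 0.139%. Of 8 epithelial markers 5 reached 1 CPM in T1074. Their means were 616 CPM for KRT8, 328 for KRT18, 157 for KRT7, 64.0 for KRT19 and 2.51 for MUC1. The T1074 libraries held little of the others, with means of 0.0964 CPM for EPCAM, 0.0951 for PAX8 and 0.354 for CDH1. The mesenchymal marker VIM was at 634 ± 155 CPM in T1074 and 1693 ± 593 CPM in SKOV-3, but at 0.126 ± 0.0300 CPM in PEO-4 (SD, n = 4). Summed over 8 markers of fibroblasts and mesenchymal cells, the level was 1740 to 4527 CPM in T1074, against 75.97 to 118 in PEO-4 and, in SKOV-3, 2528 to 4092. Markers of other cells were low, with sums of at most 24.4 CPM for 6 leukocyte genes, 45.6 CPM for 5 endothelial genes and 8.82 CPM for 8 neuronal genes, each in T1074. The part of these markers in the kinesin results was not tested.

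All 13 mitotic kinesins that could be tested were lower in PEO-4 and in SKOV-3 than in T1074. Levels are given in CPM, scaled with TMM factors, and the difference was tested by quasi-likelihood in edgeR, in a model of all 12 libraries, at an adjusted p of 0.05. The lines differed in most of the transcriptome. Of 19898 genes tested 74.1% passed in PEO-4 against T1074, 36.3% higher and 37.8% lower, and 67.8% passed in SKOV-3 against T1074, 33.3% higher and 34.5% lower. For each of the 13 genes all T1074 libraries lay above all PEO-4 libraries and above all SKOV-3 libraries, which held for 33.4% and 29.8% of all genes. The median log2 fold change of the mitotic kinesins was -2.23 in PEO-4, from -3.23 for KIF14 to -0.44 for KIF22, and -2.73 in SKOV-3, from -3.30 for KIF14 to -1.34 for KIF22. The median over all genes tested was -0.01 and -0.03. In bulk RNA, fewer cells in division and less RNA per dividing cell cannot be told apart.

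**Figure D1:**
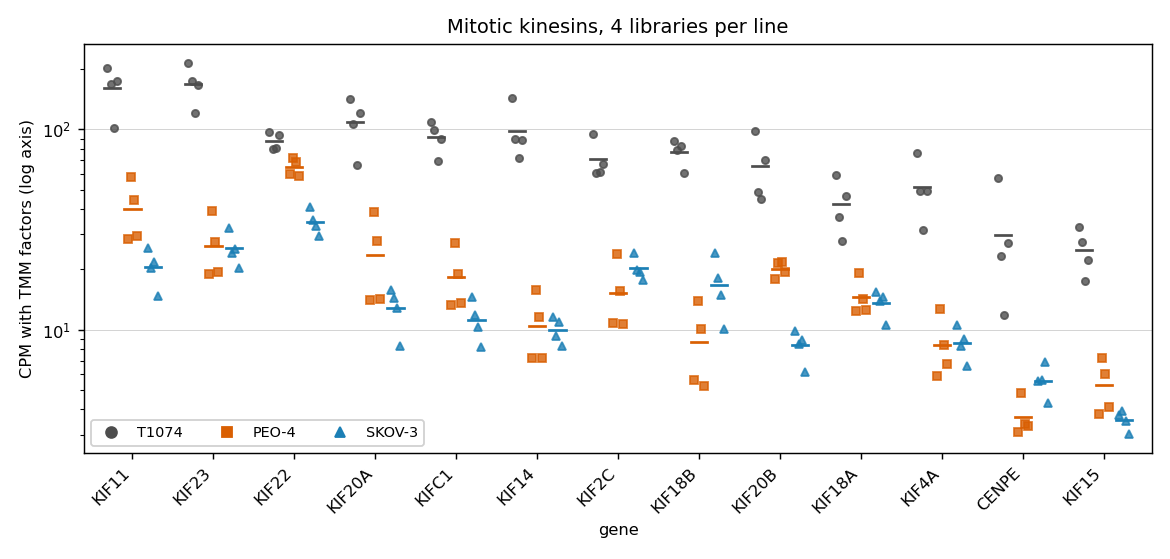
Level of each of the 13 tested mitotic kinesins (x axis) in CPM on a log axis, with 1 point per library, 4 libraries per line, and a bar at the mean of the line. For every gene the T1074 points lie above all PEO-4 and SKOV-3 points, and the gap is smallest for KIF22 in PEO-4.

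The promoters of 10 of 15 mitotic kinesins held the letters TTTGAA, which those of the transport and other kinesins mostly lacked. The cell cycle genes homology region (CHR), with the letters TTTGAA, is an element of genes expressed late in the cell cycle, where it is often found with CCAAT boxes. RefSeq promoters on GRCh38.p14, from 250 bases before to 50 after the gene start, were used for 35 of the 43 genes. TTTGAA on either strand stood in 10 of 15 mitotic kinesins (KIF4A, KIF4B, KIF11, KIF14, KIF15, KIF18A, KIF18B, KIF20B, KIF23 and KIFC1), in 1 of 11 transport kinesins (KIF5B) and in 0 of 9 others, against 15.16% of all 35116 promoters. In the mitotic kinesins the letters began between base -55 and base 31 of the gene start, and 4.84% of all promoters held them between -60 and 40, a window chosen after the positions were seen. CCAAT on either strand stood in 11 of 15 mitotic, 4 of 11 transport and 3 of 9 other kinesins, against 34.61% of all promoters. Some genes have more than 1 promoter in the table, and counted by promoter TTTGAA stood in 10 of 16 mitotic, 1 of 16 transport and 0 of 12 other sequences. GGCGG, the letters of the cell cycle-dependent element that can precede a CHR, stood in 16 of 16, 14 of 16 and 12 of 12 sequences, against 59.04% of all promoters. The E2F letters TTTGGCGC and TTTCCCGC stood only in KIF15 and KIF25, and in 0.65% and 1.63% of all promoters. The share of G and C letters had a median of 62.2% in mitotic, 70.5% in transport and 63.2% in other kinesin promoters, beside 58.7% in all promoters. The part of this base composition in the matches was not tested. These matches are descriptions of the letters, and binding was not measured.

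The stretches from 120 bases before to 30 after the start are shown for the 4 mitotic kinesins of highest mean CPM that held TTTGAA there, because they show how the CHR and CCAAT letters sit beside each other. Capitals mark TTTGAA and CCAAT, or TTCAAA and ATTGG where they read on the other strand. KIF11 is at chr10:92593010-92593159 on the plus strand, KIF23 at chr15:69414229-69414378 on the plus strand, KIFC1 at chr6:33391703-33391852 on the plus strand and KIF14 at chr1:200620722-200620871 on the minus strand, all on GRCh38.p14.
KIF11: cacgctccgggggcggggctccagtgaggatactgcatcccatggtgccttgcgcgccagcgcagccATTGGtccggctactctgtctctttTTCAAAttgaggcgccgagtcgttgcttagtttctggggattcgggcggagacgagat
KIF23: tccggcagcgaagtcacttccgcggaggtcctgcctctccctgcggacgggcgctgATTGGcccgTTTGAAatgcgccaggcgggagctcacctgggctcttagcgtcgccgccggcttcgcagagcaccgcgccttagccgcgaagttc
KIFC1: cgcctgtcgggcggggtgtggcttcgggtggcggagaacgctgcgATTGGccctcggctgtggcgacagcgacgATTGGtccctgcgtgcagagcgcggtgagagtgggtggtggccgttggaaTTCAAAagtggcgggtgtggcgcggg
KIF14: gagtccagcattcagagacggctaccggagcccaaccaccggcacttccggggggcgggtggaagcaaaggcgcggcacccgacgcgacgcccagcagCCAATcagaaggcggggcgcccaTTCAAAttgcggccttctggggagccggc
In all 4 stretches a CCAAT box lies before the CHR letters, and KIFC1 has 2 of them.

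KIF11, the bipolar motor that pushes the spindle poles apart and is the target of spindle drugs, was among the mitotic kinesins of highest level. Its CPM was 203, 168, 102 and 174 in T1074 replicates 1 to 4, 28.3, 57.9, 44.2 and 29.4 in PEO-4, and 25.7, 20.3, 21.9 and 14.8 in SKOV-3. The T1074 libraries stood apart from both carcinoma lines, and those of PEO-4 stood above those of SKOV-3. KIF11 was 4.04-fold lower in PEO-4 (log2 fold change -2.02 ± 0.26, SE, adjusted p = 5.95e-06 in edgeR) and 7.82-fold lower in SKOV-3 (-2.97 ± 0.27, adjusted p = 2.2e-07) than in T1074. KIF15, which can share the work of KIF11 in keeping the spindle bipolar, fell in the same order, from 24.9 ± 6.39 CPM in T1074 to 5.29 ± 1.64 in PEO-4 and 3.55 ± 0.393 in SKOV-3.

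KIFC1, the minus-end-directed motor that bundles spindle microtubules and clusters extra centrosomes, was at 109, 99.0, 69.1 and 89.1 CPM in T1074, at 13.3, 27.1, 18.9 and 13.7 in PEO-4 and at 14.5, 11.8, 10.4 and 8.24 in SKOV-3. It was 5.00-fold lower in PEO-4 (log2 fold change -2.32 ± 0.24, adjusted p = 5.72e-07) and 8.13-fold lower in SKOV-3 (-3.02 ± 0.24, adjusted p = 6.88e-08) than in T1074. The carcinoma lines overlapped, since the highest SKOV-3 library was above the lowest PEO-4 libraries.

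The chromokinesins bind chromosome arms and push them towards the spindle equator. KIF4A, which also shortens midzone microtubules, was at 51.5 ± 18.3 CPM in T1074, against 8.44 ± 3.04 in PEO-4 and 8.6 ± 1.62 in SKOV-3. KIF4B, a near copy of KIF4A without introns, could take reads from it, and its 0 to 7 counts are uncertain for that reason. KIF22 was the mitotic kinesin that differed least, with 87.6 ± 8.82 CPM in T1074, against 64.7 ± 6.67 in PEO-4 and 34.6 ± 5.00 in SKOV-3. Its fall of 1.35-fold in PEO-4 (log2 fold change -0.44 ± 0.12, adjusted p = 0.00456) was not called without PEO-4 replicate 1 (-0.29, adjusted p = 0.0809) or without PEO-4 replicate 4 (-0.27, adjusted p = 0.0916), and the adjusted p ran from 0.00123 to 0.0916 over 22 alternatives. Without these libraries the median over all genes was 0.09 and 0.08, beside -0.01 with all libraries. It was 0.09 without PEO-4 replicate 2 and 0.07 without PEO-4 replicate 3, where the KIF22 call was kept. The part of scaling in these calls was not tested. In SKOV-3 KIF22 was 2.53-fold lower (-1.34 ± 0.12, adjusted p = 2.5e-07).

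The motors that work at kinetochores and at the plus ends of spindle microtubules were lower as well. CENPE, which carries chromosomes to the equator, was at 29.8 ± 19.3 CPM in T1074, against 3.66 ± 0.806 in PEO-4 and 5.58 ± 1.05 in SKOV-3. KIF2C, the depolymerase that corrects wrong attachments, was at 71.1 ± 16.5, 15.2 ± 6.17 and 20.3 ± 2.704 CPM. KIF18A, which damps the swings of aligned chromosomes, was at 42.4 ± 13.5, 14.6 ± 3.18 and 13.6 ± 2.11 CPM. Its near relative KIF18B, which controls astral microtubules, was at 87.1, 78.8, 82.9 and 60.7 CPM in T1074, at 5.59, 13.9, 10.1 and 5.21 in PEO-4 and at 24.1, 18.1, 14.8 and 10.1 in SKOV-3. KIF18B thus fell further than KIF18A in both lines, by 8.86-fold in PEO-4 (log2 fold change -3.15 ± 0.32, adjusted p = 5.52e-07) and by 4.61-fold in SKOV-3 (-2.204 ± 0.31, adjusted p = 1.71e-05). The difference between the falls of these relatives was not tested.

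The motors of the central spindle and of cytokinesis included KIF14, the mitotic kinesin with the largest fall in both lines. KIF14, which brings citron kinase to the midbody, was at 144, 89.5, 72.1 and 88.3 CPM in T1074, at 7.26, 15.8, 11.5 and 7.20 in PEO-4 and at 11.6, 9.30, 10.96 and 8.26 in SKOV-3. It was 9.41-fold lower in PEO-4 (log2 fold change -3.23 ± 0.27, adjusted p = 7.58e-08) and 9.82-fold lower in SKOV-3 (-3.30 ± 0.27, adjusted p = 8.98e-08), and the carcinoma lines overlapped. KIF20A, which carries the chromosomal passenger complex to the midzone, was at 142, 106, 66.6 and 121 CPM in T1074, at 14.1, 38.7, 27.7 and 14.2 in PEO-4 and at 15.8, 14.4, 12.9 and 8.32 in SKOV-3. PEO-4 replicates 2 and 3 were above the other PEO-4 libraries and below the lowest T1074 library. KIF20A was 4.59-fold lower in PEO-4 (-2.199 ± 0.33, adjusted p = 2.75e-05) and 8.46-fold lower in SKOV-3 (-3.08 ± 0.34, adjusted p = 1.77e-06).

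KIF23, the motor subunit of centralspindlin, which it forms with the product of RACGAP1, had the highest TPM of the mitotic class in T1074, with 28.4, while KIF22 had it in PEO-4, with 8.78 against 3.63 for KIF23, and in SKOV-3, with 5.73 against 2.77. Its CPM was 215, 174, 121 and 166 in T1074, 19.0, 39.01, 27.4 and 19.4 in PEO-4, and 32.3, 24.0, 25.3 and 20.2 in SKOV-3. The fall was 6.45-fold in PEO-4 (log2 fold change -2.69 ± 0.24, adjusted p = 1.62e-07) and 6.64-fold in SKOV-3 (-2.73 ± 0.24, adjusted p = 1.95e-07). RACGAP1 itself was at 147 ± 32.0 CPM in T1074, against 32.6 ± 9.46 in PEO-4 and 49.2 ± 6.05 in SKOV-3. KIF20B, which takes part in the last steps of cell separation, was at 65.7 ± 24.7, 20.1 ± 1.82 and 8.36 ± 1.57 CPM.

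Between the carcinoma lines fewer mitotic kinesins passed, and in both directions. Of all genes tested 75.2% passed in PEO-4 against SKOV-3, 38.5% higher and 36.7% lower. Of the 13 mitotic kinesins 6 were higher in PEO-4 (KIF11, KIF15, KIF20A, KIF20B, KIF22 and KIFC1), KIF18B was lower, and 6 did not pass. The median log2 fold change was 0.10, beside 0.05 over all genes, and 1 of the 13 genes, KIF20B, passed 1 log2 unit. KIF20B was 2.40-fold higher in PEO-4 (1.27 ± 0.22, adjusted p = 0.000121), and KIF22 was 1.87-fold higher (0.90 ± 0.12, adjusted p = 9.63e-06), both with no overlap of libraries. The calls of KIF15, KIF18B and KIF20A depended on single libraries, and CENPE was called lower without T1074 replicate 1 or T1074 replicate 3 (-0.61 each) and KIF2C without PEO-4 replicate 2 (-0.66). CENPE was also called lower with only the 8 libraries of both lines (-0.60). With no filter beyond 1 count CENPE (-0.66) and KIF2C (-0.46) were called lower. KIF23, at 0.04 ± 0.23, was called higher with length-scaled TPM (0.62). KIF15, at 0.58 ± 0.22, was not called without PEO-4 replicate 2 (0.44), PEO-4 replicate 3 (0.57), SKOV-3 replicate 3 (0.56) or SKOV-3 replicate 4 (0.50), and its adjusted p ran from 0.00756 to 0.0884. KIF18B, at -0.94 ± 0.30, was not called without PEO-4 replicate 1 (-0.73) or PEO-4 replicate 4 (-0.70), with an adjusted p of 0.000623 to 0.0528. KIF20A, at 0.88 ± 0.32, was not called without PEO-4 replicate 2 (0.59) or SKOV-3 replicate 4 (0.71), with an adjusted p of 0.0047 to 0.0874.

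Within a line the mitotic kinesins moved together from library to library. In T1074, replicate 1 had the highest CPM of all 13 tested genes and replicate 3 had the lowest of 10. In PEO-4, replicate 2 had the highest of 12 and replicate 1 the lowest of 9. In SKOV-3, replicate 1 had the highest of 11 and replicate 4 the lowest of all 13. Of the 15 transport kinesins at most 10 were highest or lowest in 1 library. The coefficient of variation within a line had a median over genes of 26.6% in T1074, against 35.3% in PEO-4 and 18.8% in SKOV-3 for the mitotic kinesins, and of 17.0%, 9.42% and 9.33% for the transport kinesins with at least 1 CPM. T1074 replicate 1 was also the shallowest library, with 65.4% of its counts in protein-coding genes, where its 3 fellows had 72.1% to 82.0%. Without it all 13 mitotic kinesins were still called lower in each carcinoma line.

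Genes that work with the mitotic kinesins were mostly lower in the carcinoma lines. Of 22 such genes, which encode the chromosomal passenger complex, centralspindlin, kinetochore, checkpoint and spindle proteins, all 22 were lower in PEO-4 and 21 in SKOV-3 than in T1074, with a median log2 fold change of -2.23 and -1.96. Of all genes tested 37.8% and 34.5% were lower, with medians of -0.01 and -0.03. AURKB, the kinase of the passenger complex, fell most, from 53.1 ± 4.64 CPM to 5.48 ± 3.13 in PEO-4 (-3.27 ± 0.33, adjusted p = 4.96e-07) and 4.85 ± 1.09 in SKOV-3 (-3.45 ± 0.33, adjusted p = 4.21e-07). PRC1, the crosslinker of the midzone to which KIF4A and KIF14 bind, was at log2 fold changes of -3.25 ± 0.29 in PEO-4 and -2.67 ± 0.28 in SKOV-3, where NUF2, a kinetochore protein, fell further (-2.97 ± 0.23). INCENP, the scaffold of the passenger complex, was the exception in SKOV-3, with 59.4 ± 5.93 CPM against 47.8 ± 14.2 in T1074 (0.32 ± 0.19, adjusted p = 0.154), where it was called higher without T1074 replicate 1, and it fell to 18.0 ± 3.99 in PEO-4. CKAP5, a microtubule polymerase, fell least in PEO-4, apart from BIRC5, with a log2 fold change of -1.16 ± 0.10.

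Of 14 general proliferation genes 13 were lower and 1 was higher in each carcinoma line, with a median log2 fold change of -2.49 in PEO-4 and -1.92 in SKOV-3. Among all genes tested 37.8% and 34.5% were lower. FOXM1, a transcription factor of late cell cycle genes, was at 143 ± 19.8 CPM in T1074, against 22.9 ± 7.02 in PEO-4 and 10.6 ± 2.51 in SKOV-3. E2F1, a factor of the start of DNA replication, was at 144 ± 49.4, 13.1 ± 5.39 and 35.3 ± 12.4 CPM. CDC20, an activator of the anaphase-promoting complex, was at 74.2 ± 15.58, 25.6 ± 13.1 and 43.8 ± 12.9 CPM. CCNE1, a cyclin of the start of DNA replication, was the gene that went the other way, from 1.62 ± 0.962 CPM in T1074 to 4.63 ± 0.520 in PEO-4 and 12.5 ± 1.15 in SKOV-3. These genes were ordered like the mitotic kinesins among the libraries of PEO-4, where all 14 were highest in replicate 2, and of SKOV-3, where 13 were highest in replicate 1 and 13 lowest in replicate 4. In T1074 they were not, with 6 highest and 5 lowest in replicate 1. The part of growth rate in the kinesin results was not tested.

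The transport kinesins went both ways. In PEO-4 against T1074, 3 of 15 were higher (KIF1A, KIF5C and KIFC2), 9 were lower and the other 3 missed the threshold, with a median log2 fold change of -0.89. In SKOV-3, 6 were higher (KIF1A, KIF1B, KIF13A, KIF13B, KIF16B and KIF17), 3 were lower (KIF1C, KIF5A and KIFC3) and 6 did not pass, with a median of 0.28. The transport kinesins called were 12 of 15 in PEO-4, beside 74.1% of all genes, and 9 of 15 in SKOV-3, beside 67.8%. Their differences were spread more widely, with a standard deviation of the log2 fold changes of 2.85 and 2.46 against 0.76 and 0.61 for the mitotic kinesins and 2.63 and 2.40 over all genes. Scaled by library size alone, the median over all genes moved to -0.17 in PEO-4 and -0.23 in SKOV-3, and then 3 transport kinesins were higher and 11 lower in PEO-4, and 4 were higher and 3 lower in SKOV-3. With DESeq2, 4 were higher and 9 lower in PEO-4, and 9 were higher and 3 lower in SKOV-3.

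**Figure D2:**
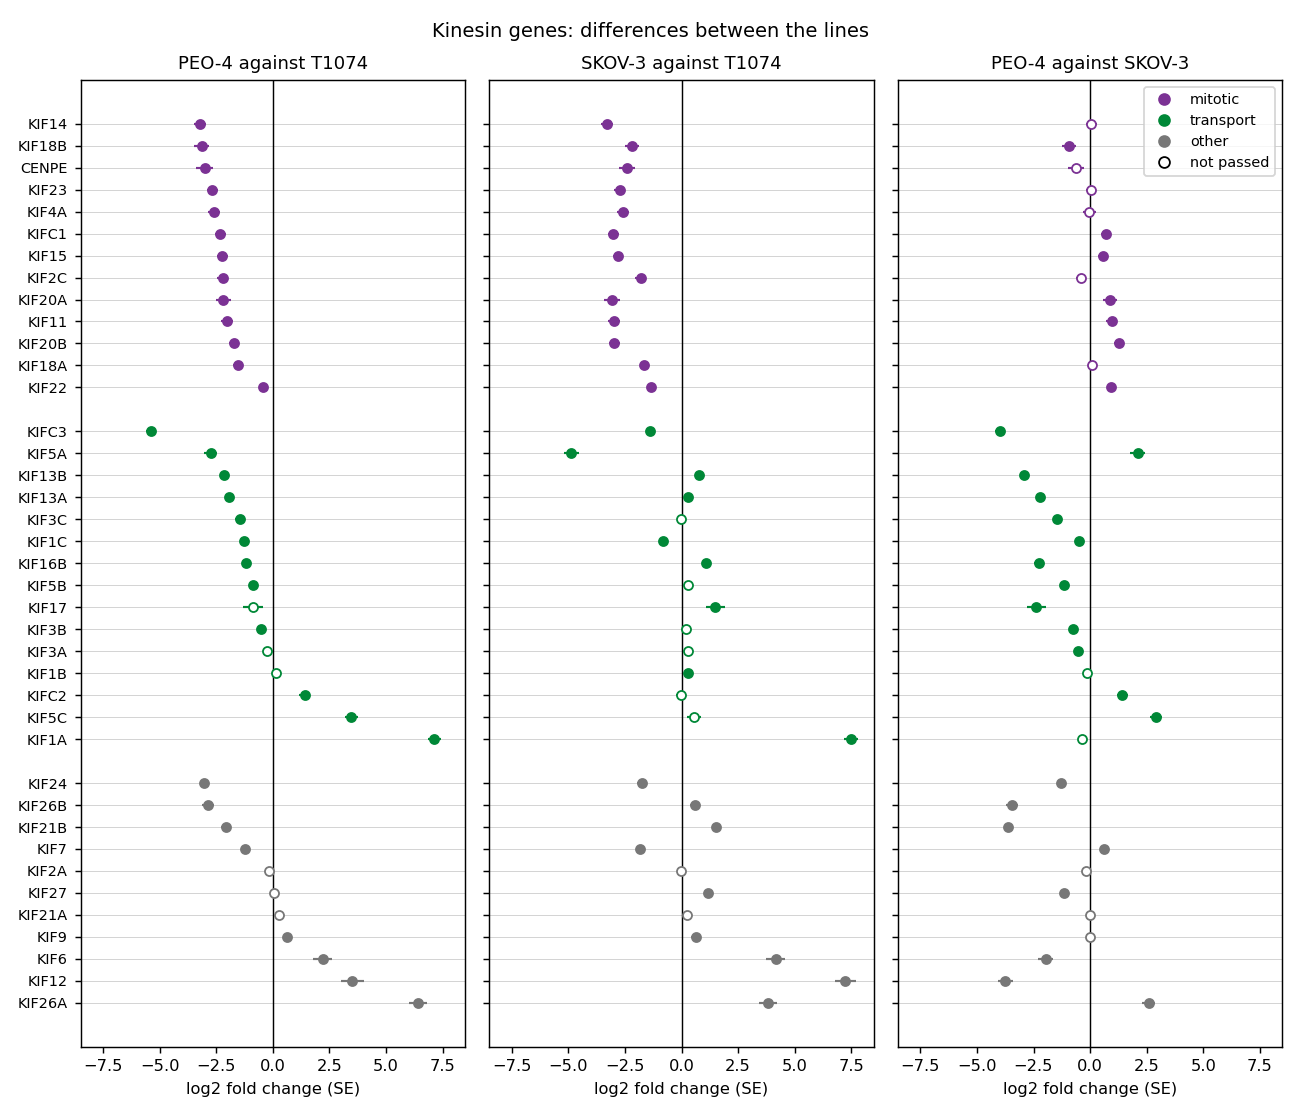
Log2 fold change with its standard error from edgeR for the 39 tested kinesins (rows, ordered by the first panel within each class) in the 3 comparisons, with filled points for genes that passed and open points for those that did not. Mitotic kinesins lie left of 0 in both comparisons with T1074, while transport kinesins run from -5.38 for KIFC3 to 7.12 for KIF1A in PEO-4 and from -4.87 for KIF5A to 7.49 for KIF1A in SKOV-3.

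The family of KIF5, or conventional kinesin, pulls mitochondria, vesicles and RNA granules with the help of light chains. KIF5B, its ubiquitous member, had the highest TPM of the transport kinesins in PEO-4 and SKOV-3, and KIFC3 had it in T1074. KIF5B CPM was 349, 302, 222 and 293 in T1074, 163, 155, 139 and 173 in PEO-4, and 311, 350, 389 and 366 in SKOV-3. PEO-4 lay below all libraries of the other lines, and was 1.85-fold lower than T1074 (log2 fold change -0.89 ± 0.14, adjusted p = 3.3e-05). SKOV-3 overlapped T1074 and did not pass (0.28 ± 0.13, adjusted p = 0.0778, from 0.0209 to 0.624 over 22 alternatives), and it passed without T1074 replicate 1 (0.39), PEO-4 replicate 3 (0.34), PEO-4 replicate 4 (0.34) or SKOV-3 replicate 1 (0.35). KIF5B also passed in SKOV-3 with DESeq2 (0.32) and with no filter beyond 1 count (0.39). Without PEO-4 replicate 3 or 4 the median over all genes was 0.02, beside -0.03 with all libraries.

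The neuronal members of this family went opposite ways. KIF5A was at 8.43, 9.99, 11.4 and 6.19 CPM in T1074, at 1.87, 0.893, 0.903 and 1.69 in PEO-4 and at 0.312, 0.423, 0.300 and 0.184 in SKOV-3. No libraries overlapped between lines, and KIF5A was 6.76-fold lower in PEO-4 (log2 fold change -2.76 ± 0.29, adjusted p = 8.53e-07) and 29.2-fold lower in SKOV-3 (-4.87 ± 0.34, adjusted p = 1.35e-08). KIF5C was at 0.251, 0.573, 0.416 and 0.249 CPM in T1074, at 4.22, 4.87, 2.97 and 5.00 in PEO-4 and at 0.624, 0.672, 0.471 and 0.471 in SKOV-3. It was thus high in PEO-4 alone, 11-fold over T1074 (3.46 ± 0.29, adjusted p = 8.42e-08) and 7.56-fold over SKOV-3 (2.92 ± 0.27, adjusted p = 2.44e-07). SKOV-3 against T1074 did not pass (0.54 ± 0.31, adjusted p = 0.135, from 0.0336 to 0.988), but did without T1074 replicate 2 (0.83). The TPM of both genes stayed far under that of KIF5B, at 1.34 for KIF5A in T1074 against 24.2 for KIF5B, and at 0.20 for KIF5C in PEO-4 against 7.49.

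Heterotrimeric kinesin-2, the motor of intraflagellar and of some vesicle transport, is made of KIF3A with KIF3B or KIF3C and the adaptor of KIFAP3. KIF3B was at 72.4 ± 6.91 CPM in T1074, against 49.8 ± 2.07 in PEO-4 and 84.2 ± 9.63 in SKOV-3, and it was 1.46-fold lower in PEO-4 (log2 fold change -0.54 ± 0.10, adjusted p = 0.000283). KIF3C was at 26.5 ± 7.59, 9.63 ± 1.69 and 26.4 ± 2.94 CPM, and 2.76-fold lower in PEO-4 (-1.46 ± 0.19, adjusted p = 8.12e-06). KIF3A was at 15.2 ± 3.18, 12.8 ± 0.836 and 18.7 ± 1.94 CPM and passed in neither comparison with T1074, at -0.25 ± 0.14 in PEO-4 and 0.30 ± 0.14 in SKOV-3. These calls of KIF3A and KIF3B are near the threshold. KIF3A was lower in PEO-4 without T1074 replicate 3 (-0.35) and higher in SKOV-3 without T1074 replicate 4 (0.42) or SKOV-3 replicate 1 (0.37). KIF3B, at 0.22 ± 0.10 in SKOV-3, was called higher without SKOV-3 replicate 1 (0.29) or without any 1 of the 4 PEO-4 libraries (0.28 each). Without any 1 PEO-4 library the median over all genes was 0.02 in SKOV-3 against T1074, beside -0.03 with all libraries. DESeq2 and RLE size factors also called KIF3A (0.34 each) and KIF3B (0.26 each) higher in SKOV-3. KIF3A was higher there with no filter beyond 1 count (0.40) as well. In PEO-4 KIF3A was also lower with scaling by library size only (-0.40) and length-scaled TPM (-0.38). KIF17, a homodimeric relative, was low in all lines, at 0.960 ± 0.568, 0.509 ± 0.139 and 2.67 ± 0.283 CPM. In SKOV-3 it was 2.83-fold higher (1.5 ± 0.40, adjusted p = 0.00414), and in PEO-4 it did not pass (-0.87 ± 0.43). It was called lower there with scaling by library size only (-1.01) and without T1074 replicate 3 (-1.22), in which it was at 0.196 CPM.

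Among the kinesin-3 motors, which are fast and processive carriers of vesicles, KIF1A stood out in both carcinoma lines. This carrier of synaptic vesicle precursors was at 0.0502, 0.0687, 0.0245 and 0.0746 CPM in T1074, at 7.76, 9.14, 7.93 and 7.59 in PEO-4 and at 10.5, 12.4, 7.32 and 11.6 in SKOV-3. T1074 held 1 to 3 counts per library and 8 in all, against 1364 in PEO-4 and 2091 in SKOV-3. By these counts the ratio to T1074 was 146 in PEO-4, with a 95% exact binomial interval of 74.1 to 340.0, and 190.0 in SKOV-3, with an interval of 96.3 to 441, and such intervals cover counting error only. The adjusted p was 4.88e-11 and 3.98e-11. PEO-4 and SKOV-3 did not differ beyond the threshold (log2 fold change -0.37 ± 0.17, adjusted p = 0.0635, from 0.00895 to 0.239), though PEO-4 was lower without SKOV-3 replicate 3 (-0.51) or T1074 replicate 3 (-0.37). KIF1A is at chr2:240713761-240824293 on GRCh38. Of the 8 neuronal markers 4 could be tested, of which 1 was lower and 3 did not pass in SKOV-3, and in PEO-4 2 rose, 1 fell and 1 did not pass.

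KIF13A, which takes mannose-6-phosphate receptors and recycling endosomes outwards, and KIF13B, which carries receptors and polarity proteins, split the carcinoma lines. KIF13A CPM was 83.5, 74.4, 67.8 and 73.4 in T1074, 21.4, 17.9, 16.9 and 22.6 in PEO-4, and 80.5, 93.7, 96.8 and 99.2 in SKOV-3. It was 3.79-fold lower in PEO-4 (log2 fold change -1.92 ± 0.12, adjusted p = 2.92e-09) and called 1.24-fold higher in SKOV-3 (0.31 ± 0.11, adjusted p = 0.0268), where 1 library overlapped T1074. The SKOV-3 call was lost without T1074 replicate 3 (0.27), SKOV-3 replicate 2 (0.31), SKOV-3 replicate 3 (0.29) or SKOV-3 replicate 4 (0.29) and with scaling by library size only (0.11), with an adjusted p of 0.00548 to 0.435. KIF13B was at 65.2 ± 5.91 CPM in T1074, against 14.7 ± 1.41 in PEO-4 and 111 ± 6.57 in SKOV-3. This was 4.44-fold lower in PEO-4 (-2.15 ± 0.10, adjusted p = 2.47e-10) and 1.70-fold higher in SKOV-3 (0.76 ± 0.10, adjusted p = 8.82e-06), with no overlap between any lines. KIF16B, which moves early endosomes, was split likewise at lower levels, with 3.76 ± 1.15, 1.66 ± 0.143 and 8.04 ± 0.670 CPM, 2.27-fold lower in PEO-4 (-1.18 ± 0.21) and 2.13-fold higher in SKOV-3 (1.09 ± 0.20).

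KIF1B and KIF1C are carriers of mitochondria or vesicles in most cells. KIF1B was at 106 ± 8.69 CPM in T1074, against 117 ± 5.47 in PEO-4 and 129 ± 5.09 in SKOV-3. It was called 1.21-fold higher in SKOV-3 (log2 fold change 0.28 ± 0.09, adjusted p = 0.0121, from 9.16e-05 to 0.621), a call that scaling by library size (0.07) and length-scaled TPM (0.13) removed. In PEO-4 it did not pass (0.14 ± 0.09, adjusted p = 0.161, from 0.00854 to 0.993), but it passed without PEO-4 replicate 1 (0.26), 2 (0.24), 3 (0.29) or 4 (0.25). Without any 1 of these libraries the median over all genes was 0.07 to 0.09, beside -0.01 with all libraries. KIF1B in PEO-4 also passed with DESeq2 (0.22), at a mean of at least 1 CPM (0.24) and with protein-coding genes only (0.26). There the median over all genes was 0.06, -0.055 and -0.05. RLE size factors (0.22) and only the 8 libraries of both lines (0.25) called it higher as well. The adjusted p of 0.993 came with length-scaled TPM. The part of scaling in these calls was not tested. KIF1C fell in both lines, from 129 ± 20.7 CPM to 53.2 ± 3.02 in PEO-4, 2.43-fold (-1.28 ± 0.12, adjusted p = 2.31e-07), and to 73.7 ± 7.17 in SKOV-3, 1.75-fold (-0.81 ± 0.12, adjusted p = 2.82e-05).

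The C-terminal motors KIFC2 and KIFC3 move towards minus ends. KIFC3, which takes part in apical transport and in the anchoring of microtubules at adherens junctions, had the largest fall of all kinesins in PEO-4. Its CPM was 178, 121, 232 and 190 in T1074, 3.34, 5.45, 4.73 and 3.79 in PEO-4, and 71.4, 63.9, 62.7 and 75.7 in SKOV-3. KIFC3 was 41.6-fold lower in PEO-4 (log2 fold change -5.38 ± 0.22, adjusted p = 4.71e-11) and 2.63-fold lower in SKOV-3 (-1.40 ± 0.18, adjusted p = 9.07e-06), and no libraries overlapped between lines. In T1074 it had the highest mean TPM of all kinesins, 32.5, while it was at 8.92 in SKOV-3 and 0.5375 in PEO-4. KIFC3 is at chr16:57758217-57863053 on GRCh38. KIFC2, a carrier of endosomes and multivesicular bodies, was higher in PEO-4 alone, with 35.4, 47.9, 85.2 and 35.0 CPM against at most 20.9 in T1074 and 20.5 in SKOV-3. PEO-4 replicate 3 was far above the other PEO-4 libraries, but all 4 lay above both other lines (2.64-fold over T1074, 1.40 ± 0.23, adjusted p = 7.87e-05).

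**Figure D3:**
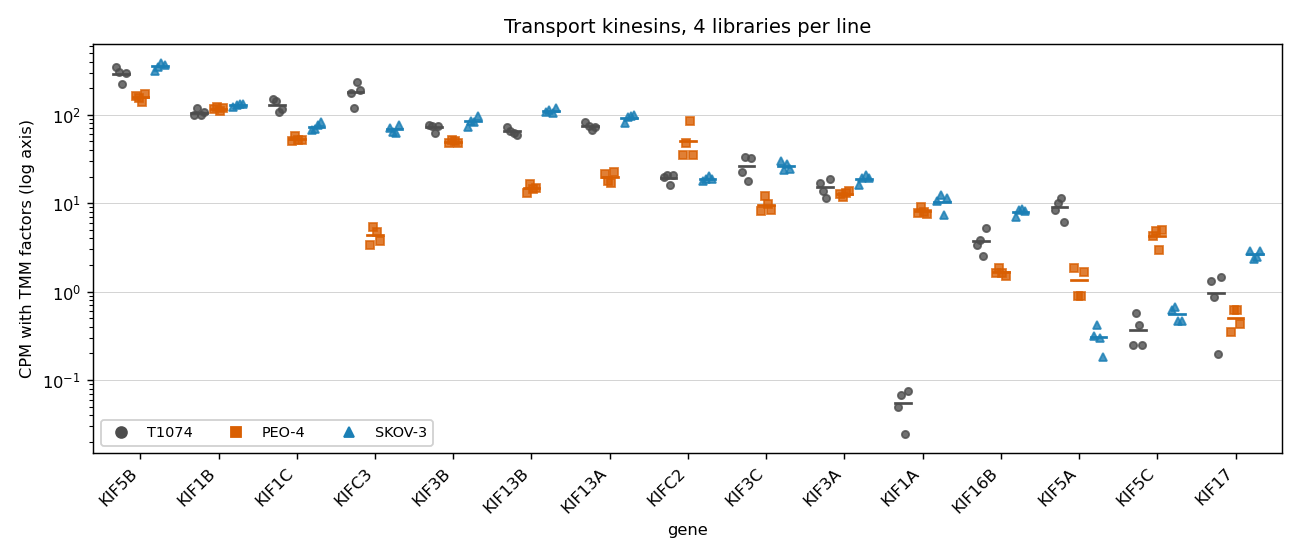
Level of each of the 15 transport kinesins (x axis) in CPM on a log axis, with 1 point per library, 4 libraries per line, and a bar at the mean of the line. KIFC3, KIF13A and KIF13B are low in PEO-4 beside both other lines, KIF5C and KIFC2 are high in it, and KIF1A is low in T1074.

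Directly between the carcinoma lines, 10 of 15 transport kinesins were lower and 3 were higher in PEO-4 than in SKOV-3, with a median log2 fold change of -0.76 beside 0.05 over all genes. The lower ones included KIFC3 (-3.98 ± 0.21, adjusted p = 5.02e-10), KIF13B (-2.91 ± 0.11, adjusted p = 1.81e-11), KIF17 (-2.37 ± 0.42, adjusted p = 0.000124) and KIF16B (-2.27 ± 0.21, adjusted p = 1.61e-07). The higher ones were KIF5C, KIF5A (2.11 ± 0.34, adjusted p = 4.87e-05) and KIFC2 (1.42 ± 0.23, adjusted p = 6.44e-05). The share called was 86.7%, beside 75.2% of all genes. Libraries did not overlap for any of these 13 genes, and the share of all genes without overlap was not counted between these lines.

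Light chains and adaptors join the transport kinesins to cargo. Of 18 genes for light chains and adaptors 4 were higher and 11 lower in PEO-4 than in T1074, 6 were higher and 4 lower in SKOV-3 than in T1074, and 2 were higher and 13 lower in PEO-4 than in SKOV-3, with medians of -0.64, 0.09 and -0.51. The share called was 83.3%, 55.6% and 83.3%, beside 74.1%, 67.8% and 75.2% of all genes. KLC1, the main light chain partner of KIF5B, was at 81.0 ± 5.79 CPM in T1074, against 58.0 ± 1.75 in PEO-4 and 87.2 ± 2.64 in SKOV-3, in the order of KIF5B. KLC3, a light chain best known from sperm, rose in both lines from 2.05 ± 0.295 CPM, to 6.38 ± 0.370 in PEO-4 (1.65 ± 0.16, adjusted p = 3.86e-07) and 8.47 ± 1.40 in SKOV-3 (2.06 ± 0.16, adjusted p = 5.46e-08). MAPK8IP1 and MAPK8IP2, scaffolds that link KIF5 motors to cargo and kinase signalling, diverged. MAPK8IP1 was at 11.8 ± 2.58, 18.0 ± 1.55 and 55.9 ± 5.98 CPM, while MAPK8IP2 was at 9.64 ± 1.10 CPM in T1074, against 1.96 ± 0.288 in PEO-4 and 8.6 ± 0.683 in SKOV-3. KIFBP, which binds kinesin motors and keeps them off microtubules, fell from 59.5 ± 2.22 CPM to 18.0 ± 0.577 in PEO-4 (-1.72 ± 0.08, adjusted p = 2.21e-10) and 37.0 ± 1.39 in SKOV-3 (-0.68 ± 0.08, adjusted p = 3.1e-06).

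Cytoplasmic dynein carries cargo the other way along microtubules. Of 24 genes of dynein, dynactin and their regulators 23 were tested, of which 1 was higher and 16 were lower in PEO-4 than in T1074, 9 were higher and 5 lower in SKOV-3 than in T1074, and 1 was higher and 16 lower in PEO-4 than in SKOV-3, with medians of -0.81, 0.18 and -1.10. The share called in either direction was 73.9%, 60.9% and 73.9%, beside 74.1%, 67.8% and 75.2% of all genes. Of all genes 36.3%, 33.3% and 38.5% were higher, and 37.8%, 34.5% and 36.7% were lower. NDE1 and NDEL1, which help dynein bind LIS1, fell in both lines, NDE1 from 51.3 ± 10.1 CPM to 16.3 ± 3.71 and 17.0 ± 1.32, and NDEL1 from 52.0 ± 5.28 to 16.5 ± 1.05 and 18.9 ± 1.44. BICD1, an adaptor that joins dynein to cargo, was at 16.5 ± 3.43 CPM in T1074, against 18.0 ± 1.46 in PEO-4 and 103 ± 16.0 in SKOV-3. DYNLL2, a light chain, rose in both lines, from 36.3 ± 9.45 CPM to 68.1 ± 8.14 and 69.9 ± 6.25.

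Set against each other within a library, the classes took different shares in the lines. For this comparison TPM was used, which counts per transcript length, and was summed over the members of a class. Mitotic kinesins summed to 157.9 ± 49.7 TPM in T1074, against 26.7 ± 8.56 in PEO-4 and 21.2 ± 4.26 in SKOV-3, and transport kinesins to 105.3 ± 19.3, 27.6 ± 5.32 and 63.8 ± 8.91 TPM (SD, n = 4). The transport kinesins in TMM-scaled CPM summed to 994.6 ± 70.5, 505.3 ± 12 and 998.2 ± 60.9, so that SKOV-3 lay below T1074 in summed TPM and overlapped it in summed CPM. The ratio of mitotic to transport TPM was 1.71, 1.56, 1.11 and 1.51 in the T1074 libraries, 0.849, 1.31, 0.883 and 0.806 in PEO-4, and 0.436, 0.339, 0.322 and 0.248 in SKOV-3. SKOV-3 thus lay below all libraries of the other lines, while PEO-4 replicate 2 reached above the lowest T1074 library. The mean was 1.47 ± 0.254 in T1074, against 0.962 ± 0.234 in PEO-4 and 0.336 ± 0.0775 in SKOV-3, and no test was made on these chosen classes. In summed CPM, which favours the long transport transcripts, the ratio was 1.08, 0.512 and 0.194, in the same order. Mitotic kinesins made up 54.5% ± 4.38 of the kinesin TPM in T1074, against 41.1% ± 5.48 in PEO-4 and 20.9% ± 3.34 in SKOV-3.

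**Figure D4:**
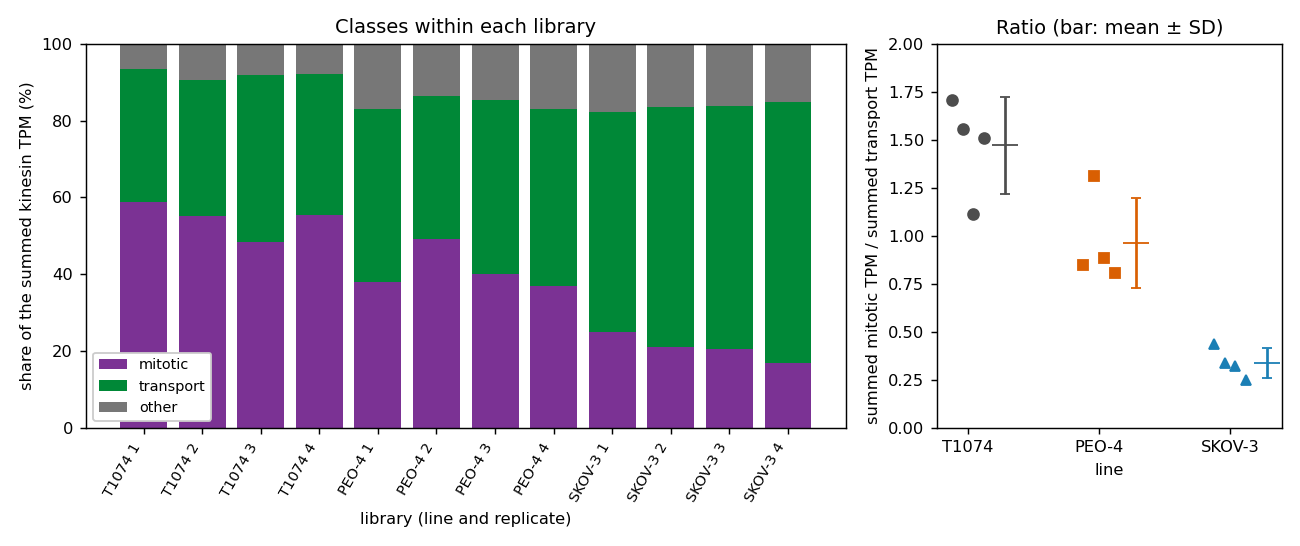
Left, share of the summed kinesin TPM, in percent, taken by mitotic, transport and other kinesins in each of the 12 libraries. Right, ratio of summed mitotic to summed transport TPM, with 1 point per library and the mean ± SD of the line beside it, 1.47 in T1074, against 0.962 in PEO-4 and 0.336 in SKOV-3.

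Among the 13 other kinesins 11 were tested. Against T1074, 4 rose and 4 fell in PEO-4, while 7 rose and 2 fell in SKOV-3. Between the carcinoma lines 2 were higher in PEO-4 and 6 in SKOV-3. The share called was 72.7%, 81.8% and 72.7%, beside 74.1%, 67.8% and 75.2% of all genes. KIF12, a gene of kidney and liver bile duct cells, was the most uneven. Its CPM was 0.0502, 0.229, 0 and 0.0497 in T1074, 1.02, 0.893, 1.31 and 0.930 in PEO-4, and 19.4, 13.8, 13.5 and 9.08 in SKOV-3. T1074 held 0 to 10 counts per library, so its fold is loose, at log2 fold changes of 3.51 ± 0.52 in PEO-4 (adjusted p = 2.42e-05) and 7.25 ± 0.47 in SKOV-3 (adjusted p = 7.28e-09). SKOV-3 was 13.4-fold above PEO-4 (adjusted p = 1.97e-07). KIF12 is at chr9:114086126-114099292 on GRCh38.

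KIF26A and KIF26B, atypical kinesins without motor activity, differed from each other. KIF26A was at 0.0502, 0.412, 0.0490 and 0.174 CPM in T1074, at 14.5, 20.3, 15.3 and 15.0 in PEO-4 and at 3.43, 2.84, 2.31 and 2.25 in SKOV-3. It was high in PEO-4, at log2 fold changes of 6.40 ± 0.39 over T1074 (adjusted p = 2.22e-09), where the libraries held 1 to 18 counts, and 2.59 ± 0.28 over SKOV-3 (adjusted p = 1.25e-06). KIF26B was at 3.22 ± 1.23, 0.447 ± 0.0417 and 4.90 ± 0.580 CPM, and so 7.24-fold lower in PEO-4 (-2.86 ± 0.27, adjusted p = 2.56e-07). Its rise in SKOV-3 (0.59 ± 0.23, adjusted p = 0.0339, from 0.00184 to 0.234) overlapped T1074 and was lost under 8 of 22 alternatives, among them leaving out T1074 replicate 1 (0.48), T1074 replicate 3 (0.46), SKOV-3 replicate 1 (0.56), SKOV-3 replicate 2 (0.59) or SKOV-3 replicate 3 (0.56).

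KIF21A and KIF21B pause the growth of microtubules. KIF21B was at 4.77, 6.78, 4.41 and 5.05 CPM in T1074, at 0.996, 1.59, 0.903 and 1.45 in PEO-4 and at 13.6, 16.0, 15.5 and 15.8 in SKOV-3. No libraries overlapped, with a 4.25-fold fall in PEO-4 (log2 fold change -2.09 ± 0.20, adjusted p = 3.13e-07) and a 2.90-fold rise in SKOV-3 (1.53 ± 0.18, adjusted p = 4.05e-06). KIF21A, at 11.7 ± 1.19, 13.9 ± 1.04 and 13.8 ± 1.87 CPM, passed in neither (0.25 ± 0.13 and 0.24 ± 0.13), but did in PEO-4 without PEO-4 replicate 1 (0.35), 2 (0.41), 3 (0.38) or 4 (0.33) and in SKOV-3 without SKOV-3 replicate 1 (0.33). Leaving out 1 PEO-4 library put the median over all genes in PEO-4 at 0.07 to 0.09, beside -0.01 with all libraries. KIF21A also passed in PEO-4 with DESeq2 (0.33), RLE size factors (0.33) and only the 8 libraries of both lines (0.36). At a mean of at least 1 CPM (0.35) and with protein-coding genes only (0.37) it passed too, where the median was -0.055 and -0.05. In SKOV-3 KIF21A also passed with DESeq2 (0.29). KIF6, a gene of motile cilia, was at 0.1003, 0.252, 0.122 and 0.0746 CPM in T1074, at 0.556, 0.893, 0.795 and 0.432 in PEO-4 and at 3.37, 2.02, 3.32 and 1.72 in SKOV-3, and rose in both lines (2.203 ± 0.43, adjusted p = 0.000306, and 4.16 ± 0.40, adjusted p = 4.9e-07). T1074 held 2 to 11 counts of KIF6 per library, so these folds are loose.

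KIF24 and KIF7 act on primary cilia, KIF24 as a block to their growth and KIF7 in Hedgehog signalling. KIF24 fell from 54.3 ± 12.2 CPM in T1074 to 6.62 ± 1.19 in PEO-4 (8.21-fold, adjusted p = 6.73e-09) and 16.1 ± 3.60 in SKOV-3 (3.38-fold, adjusted p = 1.56e-06). KIF7 fell from 23.2 ± 4.65 CPM to 9.84 ± 0.467 (2.35-fold, adjusted p = 1.57e-06) and 6.45 ± 0.570 (3.59-fold, adjusted p = 4.02e-08). Of their relatives, KIF27 was at 5.38 ± 1.15, 5.51 ± 0.876 and 12.1 ± 1.32 CPM and rose in SKOV-3 (2.25-fold, adjusted p = 3.24e-05). KIF9, a gene of motile cilia, was at 2.52 ± 0.582, 3.88 ± 0.386 and 3.84 ± 0.671 CPM and was called higher in both lines (1.56-fold, adjusted p = 0.0093, and 1.54-fold, adjusted p = 0.0116). With length-scaled TPM both KIF9 calls were lost, at log2 fold changes of 0.24 and 0.43, and scaling by library size only removed that of SKOV-3 (0.43). KIF2A, a depolymerase of interphase and spindle poles, had the highest TPM of the other kinesins and passed in neither comparison with T1074, at 91.0 ± 13.9, 80.2 ± 3.23 and 90.6 ± 5.77 CPM. Its log2 fold change was -0.18 ± 0.11 in PEO-4, called lower without T1074 replicate 3 (-0.28, adjusted p = 0.0119, from 0.0119 to 0.771 over the alternatives), and -0.01 ± 0.11 in SKOV-3. In PEO-4 KIF2A was also called lower with scaling by library size only (-0.34).

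In the carcinoma lines 5 kinesins were called in opposite directions against T1074, namely KIF13A, KIF13B, KIF16B, KIF21B and KIF26B, and each was lower in PEO-4 and higher in SKOV-3. The calls of KIF13A and KIF26B in SKOV-3 are those that single libraries decided.

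Transcript usage within the genes was also compared. The share of each transcript in its gene was tested with edgeR for 158 transcripts of 35 kinesins. In PEO-4 against T1074 12 transcripts of 8 kinesins passed, in SKOV-3 against T1074 6 of 5, and in PEO-4 against SKOV-3 11 of 8. Of all 69485 transcripts tested 5.44%, 4.81% and 7.39% passed, against 7.59%, 3.80% and 6.96% of the kinesin transcripts, so the kinesins stood near the background. The diffSplice test of limma, added after the data were seen, called 26, 14 and 22 kinesin transcripts, of which 10, 5 and 10 were called by both. On simulated data the edgeR usage test called more unchanged transcripts than its threshold allows, so calls near the threshold are uncertain. RSEM divides reads among transcripts by estimate, and the deposited TPM are rounded to 0.01, which makes shares of low genes coarse.

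In KIF1B the short and long forms changed places in PEO-4. The short forms KIF1B-205 and KIF1B-203, with a coding region of 3459 bases, encode KIF1B alpha, known as a motor of mitochondria. The long forms KIF1B-214, with 5448 coding bases, and KIF1B-201, with 5310, encode KIF1B beta, known as a motor of synaptic vesicle precursors. KIF1B-205 is at chr1:10210570-10308597 and KIF1B-214 at chr1:10210570-10381603 on the plus strand of GRCh38, with the same start and with 21 and 49 exons. KIF1B-205 made up 52.9%, 62.7%, 60.6% and 55.0% of KIF1B TPM in T1074, 18.1%, 23.3%, 18.2% and 22.6% in PEO-4, and 53.0%, 52.8%, 55.6% and 51.2% in SKOV-3. PEO-4 was far below both other lines (adjusted p = 1.48e-08 against T1074 and 3.49e-06 against SKOV-3 in edgeR). KIF1B-214 made up 11.9%, 11.5%, 15.3% and 21.4% in T1074, 43.3%, 46.0%, 44.7% and 42.1% in PEO-4, and 27.2%, 29.6%, 25.6% and 33.0% in SKOV-3, with adjusted p = 2.2e-06 for PEO-4 and 0.0266 for SKOV-3 against T1074. Together the short forms took 74.6% ± 6.98 in T1074, against 24.2% ± 2.10 in PEO-4 and 58.4% ± 2.13 in SKOV-3, and the long forms 20.8% ± 6.27, 64.8% ± 2.62 and 39.6% ± 2.08.

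**Figure D5:**
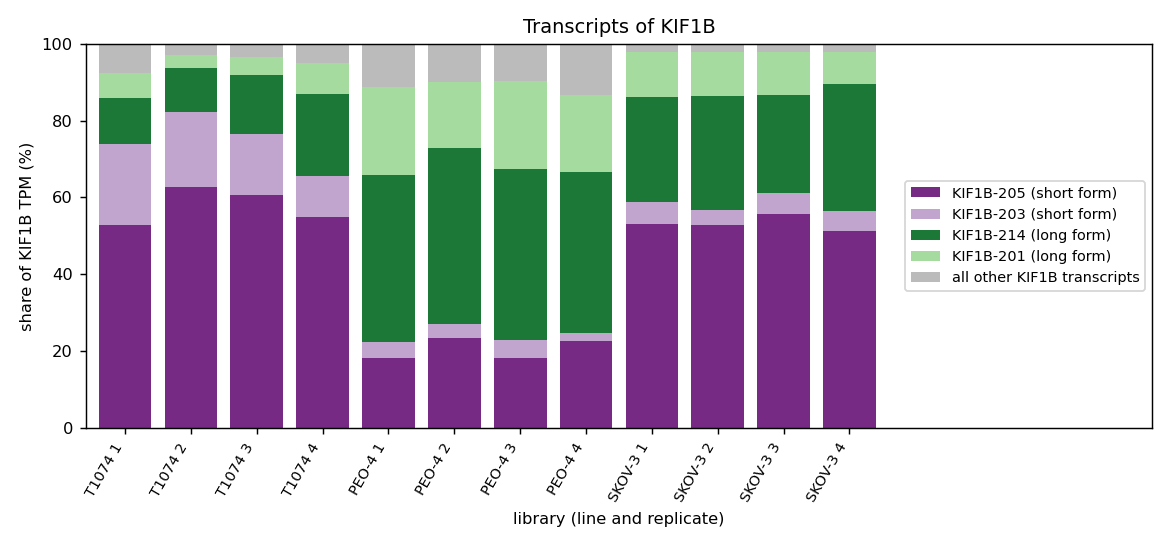
Share of KIF1B TPM, in percent, taken by its short forms (KIF1B-205 and KIF1B-203), its long forms (KIF1B-214 and KIF1B-201) and all other transcripts in each of the 12 libraries. The short forms take 65.5% to 82.3% in T1074, against 22.5% to 27.0% in PEO-4 and, in SKOV-3, 56.6% to 61.1%.

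Other kinesins with changed usage were lower in level. KIF16B-201 made up 54.8% of KIF16B TPM in T1074, against 5.36% in PEO-4 and 70.7% in SKOV-3 (adjusted p = 0.0104 for PEO-4 against T1074 and 0.00503 against SKOV-3). The gene was at 0.42, 0.1225 and 0.5375 TPM, so with rounded TPM its share in PEO-4 is coarse. KIF26B-201 made up 70.7% of the TPM in T1074 and 0% in SKOV-3 (adjusted p = 0.000117), at 0.1325 and 0.160 TPM for the gene. KIF12-205, the coding transcript of KIF12 with 19 exons, made up 47.0% in SKOV-3 and 6.45% in PEO-4 (adjusted p = 0.0407 between these lines). KIF12 was at 2.57 TPM in SKOV-3 and 0.2125 in PEO-4, so the PEO-4 share is coarse as well. KIF13A-206, chosen after its values were seen, starts inside the gene, spans chr6:17759254-17794697 with 16 exons, and made up 14.1% of KIF13A TPM in PEO-4 against 0.250% in T1074 (adjusted p = 1.44e-05).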

How the data were processed

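Total RNA of T1074, PEO-4 and SKOV-3 was sequenced with 4 libraries per line, and samples were grouped by line. The authors used bcl2fastq 2.20.0.422 for demultiplexing, Trimmomatic 0.39 for trimming, STAR 2.7.3a for alignment to hg38, and RSEM 1.3.1 on GENCODE 39 for transcript estimates. The strand setting is not given in the sources used here. The deposited files hold expected counts, which are not normalized, TPM, scaled by the authors to the same total in each library, and effective lengths.

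Expected counts were summed by gene and rounded. Genes were filtered with filterByExpr and fitted with edgeR 4.0.16 (R 4.3.3; quasi-likelihood test, TMM factors, Benjamini-Hochberg adjustment over all 19898 genes tested), with line as the only term. Transcript usage was tested with diffSpliceDGE over 69485 transcripts. The gene tests and usage tests were tried on simulated data, in which the usage test called more unchanged transcripts than its threshold allows. The promoter search, class sums and other descriptions were not. Alternatives were DESeq2 1.42.0, limma 3.58.1, other scalings and filters, a replicate block and leaving out each library.

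The kinesins and all gene lists were chosen with earlier results of these data known. Values per library were given for the 4 members of each class with the largest mean absolute log2 fold change among those of at least 1 CPM, and for KIF11, KIF23, KIF5B and KIF13A. From each list up to 2 genes with the largest rise and 2 with the largest fall against T1074 were named, and for usage the 4 genes with the largest difference in share. The values per library of KIFC2 and the genes RACGAP1, BIRC5, NUF2 and KLC1 were chosen outside this rule, after values were seen. Of the gene identifiers, 61369 matched the GENCODE 44 annotation and 164 did not. Replicates were not copies of each other, since the chi-square per degree of freedom of 18 pairs was 23.18 to 299.81.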

Additional observations from a re-analysis of the deposited data

Results flagged for a closer look

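Of 127 groups of 4 libraries, 6 held a library far from the other 3 by Dixon's ratio, where chance gives about 1 in 20 groups. KIF21A was at 9.90 CPM in T1074 replicate 3 and KIF3B at 62.1 CPM in the same library, both below the other T1074 libraries. KIF26A was at 20.3 CPM in PEO-4 replicate 2, above the other PEO-4 libraries. The ratio of mitotic to transport TPM was 1.31 in PEO-4 replicate 2, and the other PEO-4 libraries were at 0.806 to 0.883. KIF19 was at 0.0229 CPM in T1074 replicate 2 and at 0.0430 CPM in PEO-4 replicate 3, where all other libraries of the line had no count, and these are 1 and 2 counts.

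The carcinoma lines went opposite ways from T1074 in 5 kinesins, which were chosen for being called lower in PEO-4 and higher in SKOV-3, so that their difference between these lines is a description with no test. The log2 fold change of PEO-4 over SKOV-3 was -3.62 for KIF21B, -3.45 for KIF26B, -2.91 for KIF13B, -2.27 for KIF16B and -2.23 for KIF13A. Both comparisons with T1074 share its 4 libraries.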

How the results depend on the processing

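Of 3408 alternative values for 165 results under 30 settings, 2574 were of single kinesins, of which 2489 kept their call, 28 lost it, 57 gained one and 0 changed direction. Both counts of 13 lower mitotic kinesins against T1074 were kept at every alternative to within 1.5 times. When a log2 fold change of 1 in either direction was also required, 3 transport kinesins were higher in SKOV-3 than in T1074, and between PEO-4 and SKOV-3 1 mitotic kinesin was higher, 0 were lower and 1 other kinesin was higher. At an adjusted p of 0.01 in edgeR, 3 mitotic kinesins were higher and 0 lower between these lines. The count of lower ones was 3 with no filter beyond 1 count, 2 with only the 8 libraries of both lines and 0 to 2 when 1 library was left out (0 without PEO-4 replicate 1 or 4, 2 without T1074 replicate 1 or 3 or PEO-4 replicate 2). Kinesin genes with changed usage numbered 4, 3 and 4 at a mean of at least 1 CPM, 35, 35 and 32 with transcripts tested one by one, 9 in SKOV-3 against T1074 with limma, and 5 in PEO-4 against T1074 without PEO-4 replicate 4. The mitotic to transport ratio in summed CPM was 1.08 in T1074, against 0.512 in PEO-4 and 0.194 in SKOV-3, and in SKOV-3 it was 0.447 with KIF2A as mitotic and KIF21A and KIF21B as transport, and 0.4224 without the member of highest TPM in each class. Of the mitotic partners 1 was higher in SKOV-3 without T1074 replicate 1. Of the dynein genes 2 were higher in PEO-4 than in T1074 without any 1 of the T1074 libraries, PEO-4 replicate 1 or PEO-4 replicate 3, and 0 were higher in PEO-4 than in SKOV-3 without SKOV-3 replicate 2. The cause of these changes was not tested.

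Replicate numbers did not pair the libraries, since deviations of same-numbered libraries correlated at -0.0792 to 0.0692 over 12 pairs. With the replicate block all class counts were as without it, with 13 mitotic kinesins lower in each comparison with T1074, and genes with changed usage numbered 7, 4 and 7. Depth limits KIF1A, KIF6, KIF12 and KIF26A in T1074, which held few counts.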
